A study of Arabidopsis thaliana with 32 samples.

Results

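Of the 8 Arabidopsis genes of the SR34 and RS subfamilies of splicing factors, 6 held sites at which the elongating RNA polymerase II signal differed between wild type and a TFIIS mutant. The 8 genes are SR30 (AT1G09140), SR34 (AT1G02840), SR34a (AT3G49430), SR34b (AT4G02430), RS31 (AT3G61860), RS31a (AT2G46610), RS40 (AT4G25500) and RS41 (AT5G52040), chosen by family membership and matched by gene identifier. They are 8 of 27444 nuclear protein-coding genes, of which 9113 (33.2%) held a site in any list. RS31a and RS40 held none.

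The assay was ChIP-seq in whole Arabidopsis thaliana seedlings grown in vitro and collected 14 days after stratification. The antibody recognises RNA polymerase II phosphorylated at Ser2 of its C-terminal repeats (S2P). Col-0, the wild type, and tfiis-1, a mutant of the elongation factor TFIIS, were each sampled before heat shock (called 0 min) and when heat shock had lasted 10 min, 30 min or 3 h. All 8 groups had 3 ChIP libraries and 1 input library, and the groups share tissue, age and antibody. No source used here gives the temperature, the nature of the tfiis-1 allele or the number of plants per library. The authors deposited, for each time, a list of summits with more signal in tfiis-1 (tfiis-1-higher) and a list with more signal in Col-0 (Col-0-higher). A summit is a single base pair given with the gene that holds it. The lists hold no value per library. Depth is therefore unknown, no spread between replicates and no test of a genotype difference could be computed, and every count below describes the lists as deposited. The TFIIS gene (AT2G38560) had 0 summits, which checks nothing about the genotypes.

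SR proteins are RNA-binding proteins that recruit the spliceosome to splice sites and help decide which exons and introns are kept. Each carries RNA recognition motifs and a tail rich in arginine and serine, whose phosphorylation controls its activity and location. The SR34 subfamily contains the plant counterparts of human SRSF1 (SF2/ASF), and the RS subfamily is found in plants only. Transcripts of many SR genes are themselves alternatively spliced in response to light, temperature and stress. TFIIS stimulates RNA cleavage by a backtracked polymerase, so that elongation can resume, and the speed of elongation is known to affect splice site choice.

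Without heat shock, 4 of the 8 genes were tfiis-1-higher (SR30, SR34, RS31 and RS41), where 4.9% of all nuclear protein-coding genes were. At 10 min the same 4 were listed, against 10.9% of all genes. At 30 min 5 were listed (SR34, SR34a, SR34b, RS31 and RS41; background 16.6%), and at 3 h 6 were, with SR30 listed again (background 23.7%). The Col-0-higher lists held 0 of the 8 genes at 0 min (background 0.113%) and 0 at 10 min (0.251%). At 30 min they held 2, SR34a and RS41 (background 3.16%). At 3 h they held 4, SR30, SR34, SR34a and RS41 (background 10.8%). SR34, RS31 and RS41 were tfiis-1-higher at all 4 times, as were 1.96% of all genes, and SR34a and RS41 were Col-0-higher at both later times, as were 2.02%. The share of genes listed differs with gene length, and the 8 genes span 2197 to 3646 bp with a median of 3322.5 bp, against 2078 bp over all genes. Among the 8466 genes in that length range the background from 0 min to 3 h was 6.32%, 15.1%, 22.6% and 32.1% for tfiis-1-higher, with 2.78% listed at all 4 times. For Col-0-higher it was 0.177%, 0.201%, 3.52% and 12.6%, higher than over all genes except at 10 min. Both backgrounds count every annotated gene, whether or not it is transcribed in these seedlings, and expression was not adjusted for. The genes were taken up with earlier results on SR genes in these lists already known, so these shares lend those results no independent support.

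**Figure D1:**
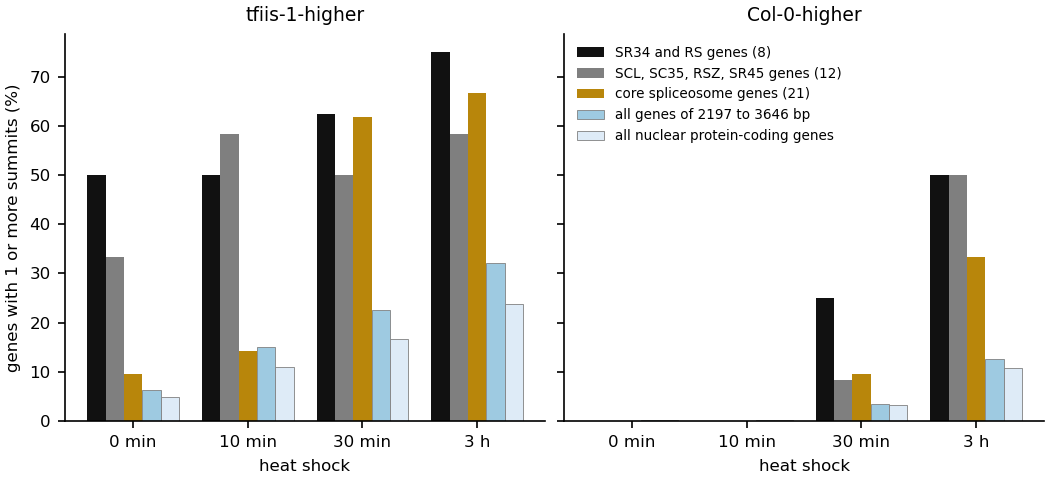
Percent of genes with 1 or more summits at each time of heat shock, tfiis-1-higher on the left and Col-0-higher on the right; bars stand for the 8 SR34 and RS genes, 2 other sets of splicing genes, all genes of matching length range and all nuclear protein-coding genes. The black bars run from 50% at 0 min to 75% at 3 h on the left, and reach 50% at 3 h on the right.

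The 6 listed genes held 46 summits, 40 tfiis-1-higher and 6 Col-0-higher. Unheated seedlings gave 5 tfiis-1-higher summits, 10 min gave 5, 30 min gave 13 and 3 h gave 17. At least 2 tfiis-1-higher summits were present in 4 of the 8 genes at 30 min, where 7.72% of all genes had as many, and in 5 of the 8 at 3 h, where 12.8% did. Every Col-0-higher call in the family was a single summit in its gene, as in nearly all genes: only 52 of 867 listed genes had several at 30 min, and 199 of 2957 at 3 h. Positions run along transcription, with 0 the annotated start of the gene and 1 its end, and summit coordinates are 1-based in TAIR10.

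**Figure D2:**
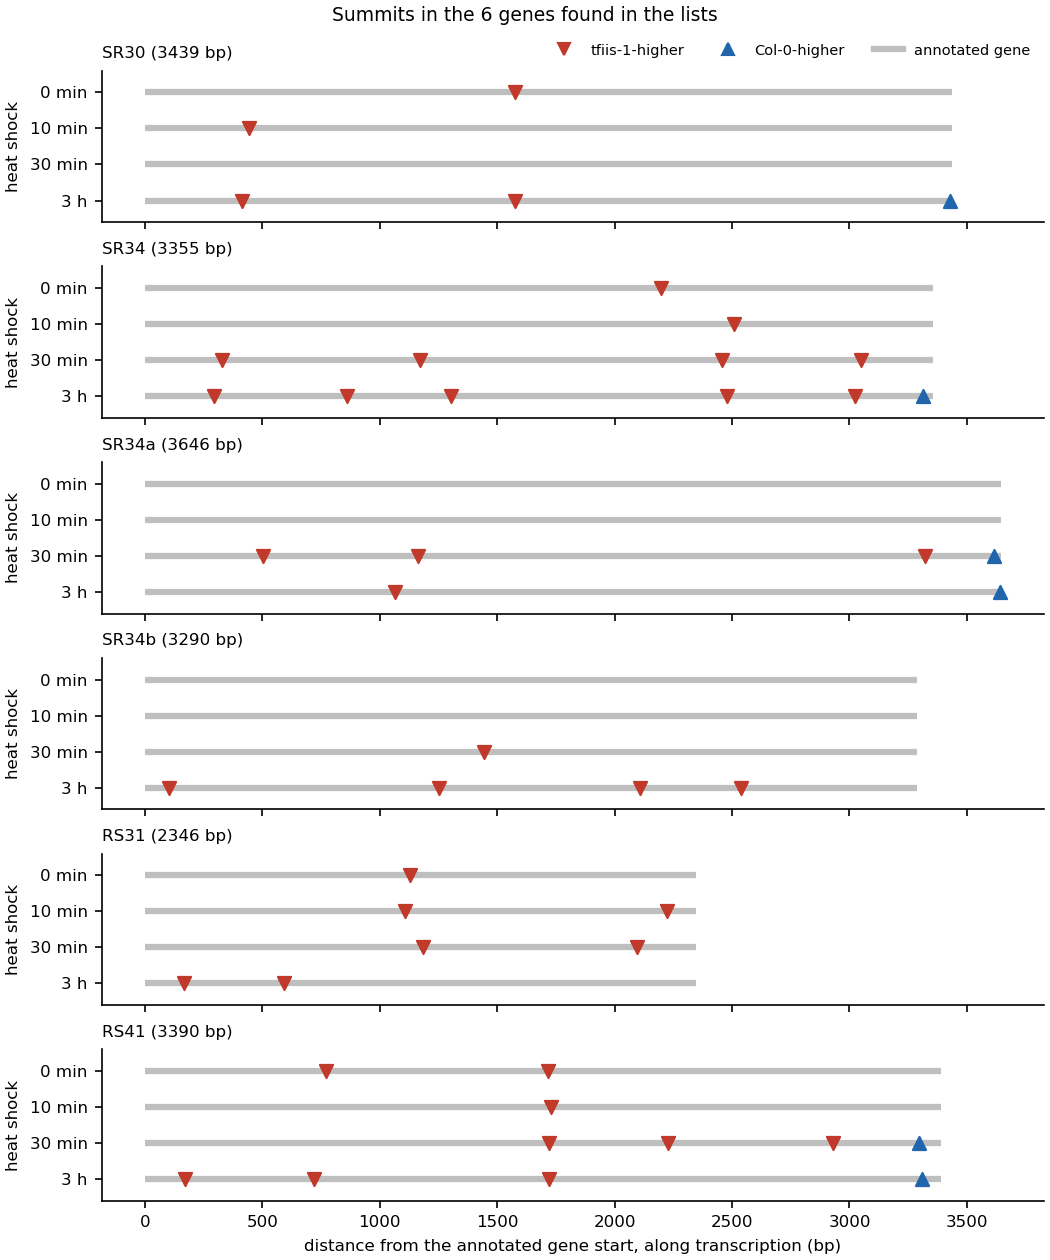
Every summit in the 6 listed genes, drawn by distance in bp from the annotated start (x axis) at each time of heat shock (rows); red triangles are tfiis-1-higher summits, blue triangles Col-0-higher summits and grey bars the annotated genes. The blue triangles all lie within 95 bp of a gene end, and RS41 shows a red column 1716 to 1730 bp from the start at every time.

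SR34, also called SR1, a general splicing activator like human SRSF1, held the most summits of the 8 genes, 12. Its tfiis-1-higher summits numbered 1, 1, 4 and 5 over the 4 times in order. The 0 min summit lay at position 0.66 (chromosome 1, 628836) and the 10 min summit at 0.75 (629148). The 30 min summits, at 0.10, 0.35, 0.73 and 0.91, spread over the whole gene, and the 3 h summits did so again at 0.09, 0.26, 0.39, 0.74 and 0.90. Among all genes, 0.532% held 5 or more tfiis-1-higher summits at 3 h, and 0.142% of those in the same length range did. Over the 4 times together SR34 had 11 tfiis-1-higher summits, a number reached by 107 genes (0.39%). A Col-0-higher summit appeared at 3 h 43 bp before the gene end (629950).

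SR34b, a close relative of SR34 that has been linked to cadmium tolerance through splicing of the iron transporter gene IRT1, entered the lists later. It had no summit at 0 min or 10 min. At 30 min it held 1 tfiis-1-higher summit at 0.44 (chromosome 4, 1070416). At 3 h it held 4, at 0.03, 0.38, 0.64 and 0.77, a number reached or passed by 1.88% of all genes. It was never Col-0-higher, so of the 4 SR34 subfamily genes it alone lacked a summit of that direction.

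SR30, which is known to act on the splicing of its own transcript and that of SR34, was the only gene of the 8 to leave the lists and return. Its tfiis-1-higher summit lay at 0.46 at 0 min (chromosome 1, 2944399) and at 0.13 at 10 min (2945534). At 30 min it was in neither list. At 3 h both sites were present, 2 bp from the 0 min summit and 28 bp from the 10 min summit, and a Col-0-higher summit lay 11 bp before the gene end (2942549). The authors' threshold, below which a gene goes unlisted, is not stated.

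SR34a (TAIR10 chromosome 3, 18331509 to 18335154) was unlisted until 30 min. It then held 3 tfiis-1-higher summits, at 0.14, 0.32 and 0.91, and a Col-0-higher summit 29 bp before the gene end (18335125). That summit had a score of 6.67 on the authors' scale, rank 456 of the 896 summits in its list. At 3 h 1 tfiis-1-higher summit remained, at 0.29, 98 bp from the nearest 30 min summit, and the Col-0-higher summit lay 2 bp before the end. SR34a thus had fewer tfiis-1-higher summits at 3 h than at 30 min, while SR34 and SR34b had more.

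In the RS subfamily 2 of 4 genes were listed, and in each pair of close relatives 1 gene was listed and the other was not. RS31, whose splicing is known to respond to light through a chloroplast signal and to the speed of elongation, had 7 summits and its relative RS31a had 0. RS41 had 11 summits and RS40 had 0; both proteins are known as partners of the RNA-binding protein HOS5 in salt and abscisic acid responses. Among genes in the length range of the 8, 57.8% were in no list, and 66.8% of all genes were in none. These shares count genes whether or not they are transcribed in the seedlings. Of the SCL, SC35, RSZ and SR45 genes described below, 2 of 12 were in no list. The same held for 7 of 21 core spliceosome genes and 2 of 7 SR protein kinase genes. RS31a (2197 bp) and RS40 (2987 bp) are shorter than the 5 listed genes other than RS31 (2346 bp). The handling of reads that match more than 1 gene copy is not stated, and calls on relatives are uncertain to that extent.

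RS31 was listed in the tfiis-1-higher direction only. Its summit at 0 min lay at 0.48 (chromosome 3, 22901265), at 10 min at 0.47 with another at 0.95, and at 30 min at 0.50 with another at 0.89. At 3 h both summits were upstream of these, at 0.07 and 0.25 (22902228 and 22901802), and none lay within 500 bp of a summit of an earlier time. The nearest was 513 bp away.

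RS41 (chromosome 5, 21130320 to 21133709) was in 6 of the 8 lists. Its tfiis-1-higher summits lay at 0.23 and 0.51 at 0 min, at 0.51 at 10 min, at 0.51, 0.66 and 0.86 at 30 min, and at 0.05, 0.21 and 0.51 at 3 h. The 0 min summit at 0.23 (21131089) also lay inside AT5G52045, a gene on the opposite strand, and cannot be assigned to either gene. Leaving it out keeps RS41 in the list. Col-0-higher summits lay 95 bp before the gene end at 30 min (21133614; score 5.61, rank 550 of 896) and 80 bp before it at 3 h (21133629).

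The middle site of RS41 recurred most closely. Its summits at 0, 10, 30 min and 3 h were at 21132036, 21132050, 21132041 and 21132039, a stretch of 14 bp. Among the 538 genes that were tfiis-1-higher at all 4 times, the smallest stretch that held a summit of every time had a median of 834.5 bp, and in 6 genes (1.12%), RS41 included, it was 14 bp or less. The stretch was 312 bp in SR34 and 590 bp in RS31, which 29.0% and 40.5% of the 538 genes matched or undercut. A gene with more summits has more ways to reach a short stretch, and this was not adjusted for. RS41 had 9 tfiis-1-higher summits over the 4 times, SR34 11 and RS31 7.

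**Figure D3:**
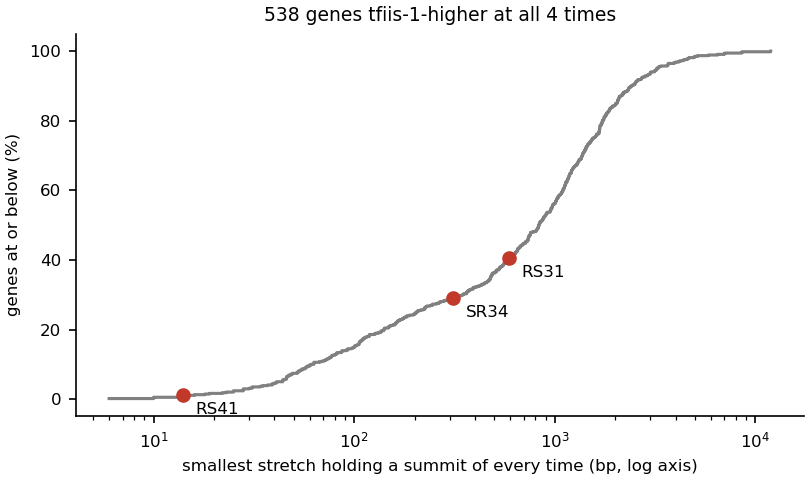
Cumulative percent of the 538 genes tfiis-1-higher at all 4 times (y axis) by the smallest stretch that holds a summit of each time (x axis, bp, log scale), with the 3 genes of the family as red points. RS41 lies at 14 bp near the bottom of the curve, SR34 at 312 bp and RS31 at 590 bp.

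Joining tfiis-1-higher summits at most 100 bp from their neighbour into sites gave 27 sites in the 6 genes. Of these, 18 belonged to a single time, 6 to 2 times, 2 to 3 times and 1 to all 4. Over all genes there were 20026 sites, of which 76.9% belonged to a single time, 18.7% to 2 times, 3.83% to 3 and 0.579% to 4. The sites called at 3 times were that of RS31 near its middle (0 min, 10 min and 30 min, within 77 bp) and that of SR34 at 0.73 to 0.75 (10 min, 30 min and 3 h, within 50 bp). SR34 also kept a site near its start and another near 0.9 from 30 min to 3 h, within 32 and 29 bp. In these genes 4 of 5 summits of 0 min and 4 of 5 of 10 min had a summit of another time within 100 bp, where 53.4% and 30.6% of all such summits did. At 30 min and 3 h it was 6 of 13 and 8 of 17, against 52.3% and 33.0%. These backgrounds and that of the sites include genes listed at a single time, whose summits cannot recur. SR30, SR34, RS31 and RS41 were each listed at 3 or 4 times. Of genes tfiis-1-higher at 0 min and also at 10 min, 30 min or 3 h, 48.8%, 83.7% and 82.5% had summits within 500 bp. In the family 3 of 4, 3 of 3 and 3 of 4 did. The 0 min count includes the RS41 summit that also lies in AT5G52045.

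The tfiis-1-higher summits of the family had a median position of 0.48 unheated, 0.51 after 10 min, 0.51 after 30 min and 0.29 after 3 h. Over all summits of the lists it was 0.40, 0.78, 0.51 and 0.40. The 10 min values differed most, but rest on 5 summits, 3 of them beyond position 0.5 (60.0%, exact 95% interval 14.7 to 94.7, counting error only) against 74.3% of all. That interval holds the share over all summits, but it treats summits of the same gene as independent and tests no difference. At 3 h 5 of 17 lay beyond 0.5 (29.4%, 10.3 to 56.0), against 38.0% of all. SR34b, RS41, RS31 and SR34 each had a tfiis-1-higher summit in the first 0.1 of the gene at 3 h, as did 5.1% of all genes. Such a summit was present in SR34 at 30 min (0.816% of all genes) and in none of the 8 genes at 0 min (0.109%) or 10 min (0.609%). Of all tfiis-1-higher summits, 2.08%, 4.35%, 2.82% and 11.8% lay there over the 4 times in order, so the larger number at 3 h went with a larger share across the list.

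**Figure D4:**
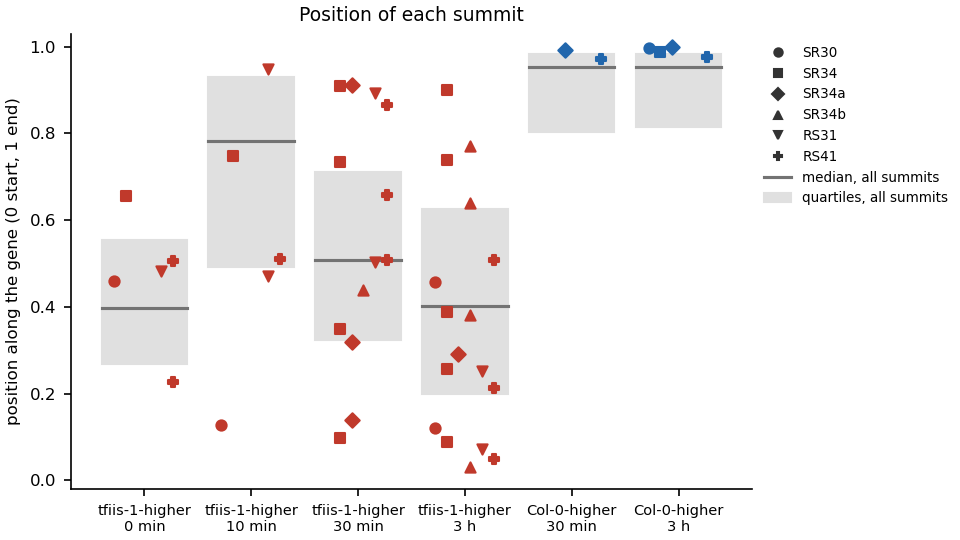
Position of each summit along its gene (y axis, 0 start to 1 end) by list (x axis), with 1 symbol per gene; grey bars and lines give the quartiles and median of all summits of the same list. The family's points at 10 min lie between 0.13 and 0.95, and their median of 0.51 is below the line at 0.78. All Col-0-higher points lie at 0.97 or above.

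Where both directions were called at one time, the tfiis-1-higher summits all lay upstream of the Col-0-higher summit. This held in 2 of 2 genes at 30 min (SR34a and RS41) and in 4 of 4 at 3 h (SR30, SR34, SR34a and RS41). Genes called both ways were 1.47% of all genes at 30 min, and 5.75% at 3 h (7.41% in the length range). The same order held in 98.0% of the 404 genes called both ways at 30 min and in 97.3% of the 1578 at 3 h. The family therefore followed the order found across the lists. At 30 min the opposite summits lay 296 bp apart in SR34a and 363 bp apart in RS41. At 3 h they were 289 bp apart in SR34, and 1590 bp or more apart in RS41, SR30 and SR34a. Opposite summits within 500 bp occurred in 11.6% and 11.9% of the genes called both ways at these times. The median distance of the Col-0-higher summits to the gene end was 62 bp at 30 min (2 summits) and 27 bp at 3 h (4 summits), against 136 and 117 bp over all summits of those lists.

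SR30, SR34 and RS41 were listed both in the 10 min tfiis-1-higher list and in the 3 h Col-0-higher list, as were 4.53% of all genes. All 3 were also tfiis-1-higher at 3 h, SR30 after being unlisted at 30 min, and had gained a Col-0-higher summit elsewhere in the gene. Their 3 h tfiis-1-higher summits lay 28, 31 and 11 bp from those of 10 min. Among the 1832 genes tfiis-1-higher at both 10 min and 3 h, 14.9%, 16.6% and 6.82% had summits as close, and 56.7% had them within 500 bp. How many genes in the 10 min tfiis-1-higher and 3 h Col-0-higher lists were also tfiis-1-higher at 3 h was not counted. The 10 min tfiis-1-higher and 3 h Col-0-higher summits lay 2985, 802 and 1579 bp apart. Of the 1242 genes in both of these lists, 76.6% had the summits within 500 bp, with a median distance of 193 bp. The 10 min summits of these 3 genes lay at 0.13, 0.75 and 0.51, upstream of the gene end where the Col-0-higher summits were.

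A set of 12 other SR and SR-like genes, of the SCL, SC35, RSZ and SR45 types, was compared. They were tfiis-1-higher in 4, 7, 6 and 7 cases over the 4 times in order, and Col-0-higher in 0, 0, 1 and 6. Being tfiis-1-higher at all 4 times was not particular to the family: 3 of these 12 genes were (SCL30, RSZ22a and RSZ32). RSZ32 (AT3G53500; RS2Z32 in the RefSeq table) and SCL30 (AT3G55460) were each in 5 lists, with 7 and 6 summits. Of 21 core spliceosome genes, 2, 3, 13 and 14 were tfiis-1-higher in the same order. Their share was thus 9.52% before heat shock, 61.9% at 30 min and 66.7% at 3 h. In the SR34 and RS genes the share was 50%, 62.5% and 75%. Col-0-higher calls in the spliceosome genes numbered 2 at 30 min and 7 at 3 h. AT5G64270 in this set was in 5 lists and MAC3B (AT2G33340), of the PRP19-type MAC3 pair, in 4. That set was compiled from general knowledge, and the RefSeq table gives 8 of its 21 genes no symbol. Of 7 genes taken as SR protein kinases, compiled likewise and 3 of them without a symbol, 0, 1, 3 and 5 were tfiis-1-higher in the order of the times, and 0, 0, 1 and 2 Col-0-higher. AFC2 (AT4G24740), a LAMMER-type kinase, was in 5 lists with 3 tfiis-1-higher summits at 10 min, and AT2G17530 was in 3. At all 4 times, 1 of the 21 core spliceosome genes and 0 of the 7 kinase genes were tfiis-1-higher. Differences between these sets were not tested.

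Genes in exactly the same lists as a family member were counted over all genes. RS41 shared its 6 lists with 57 other genes, SR34 its 5 with 168, and SR30 its 4 with 8. SCL30 and RSZ32 were among the 168. The genes nearest in position were sought only outside the family and the other gene sets above, so SCL30 and RSZ32 were not ranked. By the mean absolute difference of median position over those lists, the nearest to RS41 were AT3G42050 (0.05) and CKL2 (AT1G72710, 0.06). The nearest to SR34 were OBP4 (AT5G60850; 0.04) and SPT1 (AT3G48780; 0.05). SR30, SR34a and RS31 tie at 4 lists, and SR30 was taken by identifier order. For SR30 they were AT5G63370, named CDKG1 in the RefSeq synonyms (0.16), and AT5G25040 (0.25), at larger distances.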

How the data were processed

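The analysis used 8 lists deposited by the authors, 2 directions at each of 4 times, with 32357 lines. Per the submitters' processing notes, TAIR10, Bowtie2, FastQC, MACS3 and deepTools were used. The calling threshold, the scaling between genotypes, the use of inputs and any pooling of replicates are not stated, and each could change which sites are listed. In 2 of the lists the authors deposited a score per summit, of unstated scale, used here only to rank or filter within a list.

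Repeated lines were counted once, leaving 29485 summits. All 9114 gene identifiers matched the RefSeq table of TAIR10.1, and the 922 gene intervals present in the lists equal it; gene coordinates are printed only where the lists hold them. Exon positions and gene sequences are not used here. A gene was called where a list placed at least 1 summit in it. Shares have exact (Clopper-Pearson) 95% intervals, for counting error only, and no p-value was computed. The code was tested on simulated data. The family and the other gene sets were chosen with earlier results of these data known. The site rule (100 bp), the 4-time stretch and the comparisons of single genes by summit number were chosen after the lists were seen. All 8 genes are named. Up to 2 genes of each other set were taken by number of lists. Up to 2 like genes, from outside the family and the other sets, were taken for each of the 3 members in most lists. The tie at 4 lists was broken by identifier. Software was matplotlib 3.10.9, pandas 2.3.3, scipy 1.17.1, numpy 2.4.6 and Python 3.11.15.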

Additional observations from a re-analysis of the deposited data

How the results depend on the processing

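Counting genes with at least 2 summits in place of 1 left 1 of 4 tfiis-1-higher genes at 0 min (RS41) and 1 of 4 at 10 min (RS31), and 0 Col-0-higher genes at 30 min and 0 at 3 h. Without the RS41 summit that also lies in AT5G52045, a combination added after the data were seen, the 0 min count was 0 and the other counts of genes with at least 2 summits were as before. Asking that opposite summits lie within 500 bp left 1 gene at 3 h (SR34) in place of 4, and 0 in place of 3 for the pair of the 10 min tfiis-1-higher and 3 h Col-0-higher lists. These alternatives are stricter by construction. Other settings counted every line, merged summits within 300 bp or used summits in 1 gene only. Others took 1 position per gene or a score of at least 5. Each of these kept every count within 1.5 times and every share within its interval. Counts of genes with summits of one direction within 500 bp at 2 times also stayed within 1.5 times at 100 or 1000 bp. Those 2 distances were not applied to the opposite summits. Sites joined at 50 or 200 bp, added after the data were seen, stayed within 1.5 times too. They gave 29 or 24 sites, 8 or 12 of them called at 2 or more times. Background shares were higher among genes of at least 1000 bp for 6 of 8 lists, beyond counting error. No paired analysis was possible because the lists hold no value per library, and leaving out a replicate could not be run for the same reason. Depth and its limits on these calls are unknown.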
